A study of Mus musculus with 6 samples.

Results

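The genes described here make the translation factors and aminoacyl-tRNA synthetases of mouse embryonic fibroblasts (MEFs), and were compared between wild-type cultures and cultures heterozygous for a Nipbl knockout. They were chosen by a rule on gene names: initiation factors (Eif), elongation factors (Eef), release factors (Etf1 and the Gspt genes), cytosolic poly(A) binding proteins (Pabpc), synthetases (the one-letter "ars" symbols, Farsb) and synthetase scaffold proteins (Aimp). Of 38483 genes listed, 19269 lie on the minus strand and 50 of these matched the rule, from which Eif2ak2, Eif2s3y and pseudogene names were left out. A further 60 matching names lie on the plus strand, where all 19214 genes are listed at 0 in every culture, and could not be examined. Among them are Eif2s1, the subunit of eIF2 that is phosphorylated under stress, its kinases Eif2ak1, Eif2ak3 and Eif2ak4, the cap binding protein Eif4e, the scaffold Eif4g1, the elongation factor Eef2 and the alanyl and valyl synthetases Aars and Vars.

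Translation begins when eIF2 brings the initiator tRNA to the small ribosomal subunit. The factor eIF3 helps that subunit take up the mRNA, and eIF4F binds the cap and unwinds the leader. Elongation factors then deliver charged tRNAs and move the ribosome, release factors free the finished chain at the stop codon, and the synthetases attach each amino acid to its tRNA. Phosphorylation of eIF2 lowers initiation in general and raises translation of the stress factor ATF4, whose targets include many synthetase genes.

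RNA was sequenced from 3 WT and 3 Nipbl+/- MEF cultures of CD1 strain mice at passage 3, all grown in the same serum-supplemented medium. Nipbl encodes the factor that loads cohesin onto chromosomes, and its heterozygous loss models Cornelia de Lange syndrome. The mutation is carried in every cell, the WT cultures came from littermates, and the study's methods describe MEFs made from mid-gestation embryos of 1 pregnant mouse after limbs, brain and internal organs had been taken out. RNA was freed of ribosomal RNA before library preparation. The labels do not say whether same-genotype cultures came from separate embryos, so the p-values measure the spread between these cultures. The X-linked RNA Xist and the Y-linked gene Ddx3y differed between cultures of the same genotype (described with Eif2s3x). Xist was high in WT 3, Nipbl+/- 1 and Nipbl+/- 2, so the genotypes were not balanced for it.

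Depth was 20307454 to 25990783 counts per culture. In WT cultures Nipbl itself (chr15:8291225-8444463, mm10) stood at 128, 145 and 135 CPM (counts scaled to a common library total with TMM factors), and in Nipbl+/- cultures at 101, 101 and 100. Its log2 fold change of Nipbl+/- over WT was -0.43 (SE 0.06, adjusted p = 0.0213 by the quasi-likelihood F-test of edgeR). P-values were adjusted by the Benjamini-Hochberg method across the 9061 genes tested. Nipbl missed the threshold without WT 1, Nipbl+/- 1 or Nipbl+/- 2, at -0.47, -0.43 and -0.44. Of 18 fibroblast marker genes, the 6 on the minus strand summed to 17763 to 21850 CPM in WT and 19458 to 21684 CPM in Nipbl+/- cultures. Of these 6 genes, 2 had log2 fold changes above 0, the median was -0.20 and none passed the threshold. Of 18 macrophage markers, 11 were tested and none passed the threshold, but their sum was 71.2 to 88.3 CPM in WT and 102 to 195 CPM in Nipbl+/- cultures. Of these 11 genes, 10 had log2 fold changes above 0, with a median of 1.04. None of the 11 was at 0 in all cultures. In bulk RNA, fewer cells of a type and less RNA per cell cannot be told apart.

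The translation genes were expressed at very different levels. The values compared here are deposited RPKM, which are per kilobase of transcript, as mean ± SD over all 6 cultures. Eef1a1, the factor that brings charged tRNA to the ribosome, stood at 5179 ± 189 RPKM and ranked 9 of the 9061 genes tested. It held 49.7 to 51.7% of the counts of the 50 genes in each culture. In all, these genes took 2.56 to 2.76% of the counts of a culture, and the 48 that passed the filter on low counts had a median of 66.8 RPKM, against 7.89 RPKM over all genes tested.

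**Figure D1:**
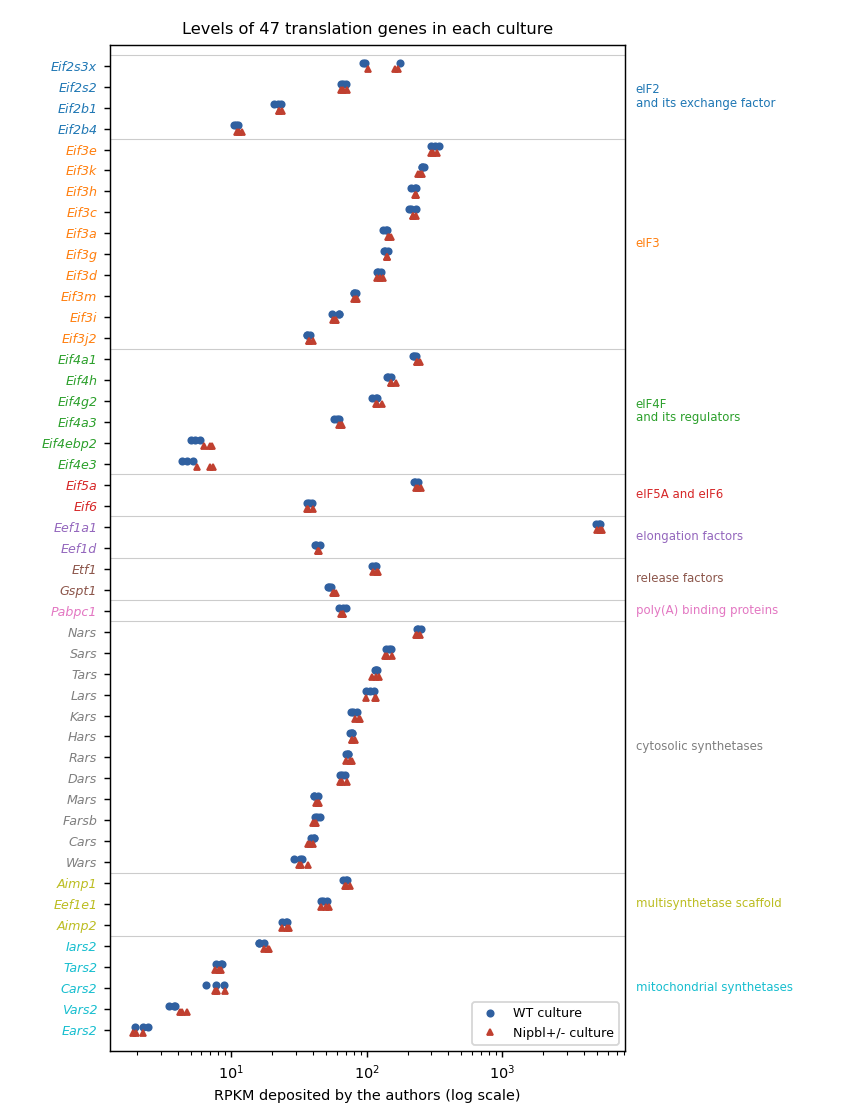
Deposited RPKM (log axis) of 47 of the 48 translation genes that passed the count filter, grouped by role, with one point per culture and the genotypes in separate colours. As means over all cultures, Eef1a1 stands at 5179 RPKM and the cytosolic synthetases lie between 32.5 and 239 RPKM. The means of the mitochondrial synthetases lie between 2.11 and 17.4 RPKM.

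Within eIF3 the levels of the 10 subunits ran from 37.5 ± 1.38 RPKM for the loosely bound Eif3j2 to 316 ± 17.2 RPKM for Eif3e, a range of 8.43-fold. Eif3j2 could share reads with its paralog Eif3j1, which lies on the plus strand. The next lowest subunit was Eif3i at 59.0 ± 2.93 RPKM. Eif3k (252 ± 7.96), Eif3h (227 ± 6.83) and Eif3c (219 ± 8.95) followed Eif3e, and Eif3h and Eif3c differed by less than 1 SD of Eif3c. The RNA helicase of the cap complex, Eif4a1, stood at 232 ± 9.77 RPKM and the hypusine-carrying factor Eif5a at 235 ± 9.85 RPKM, a difference smaller than the spread of either. At the other end, the alternative cap binding protein Eif4e3 was at 5.69 ± 1.23 RPKM and the cap complex inhibitor Eif4ebp2 at 6.11 ± 0.86 RPKM.

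Synthetases were classed by symbol alone, with symbols ending in "ars2" taken as mitochondrial. Each of the 12 genes classed as cytosolic exceeded each of the 6 classed as mitochondrial. Nars, which charges asparagine tRNA, was highest at 239 ± 8.81 RPKM and Wars, which charges tryptophan tRNA, lowest at 32.5 ± 2.66 RPKM. The highest mitochondrial enzyme, Iars2, was at 17.4 ± 1.19 RPKM, so that Wars stood 1.87-fold above it. Ears2, at 2.11 ± 0.21 RPKM, was the lowest of the genes tested here.

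Eef1a2, the form of the elongation factor used in muscle and neurons, had 3 and 1 counts in WT 1 and WT 2 and 0 in the other 4 cultures. The testis-associated Pabpc6 had 0 counts in every culture, and a count of 0 allows up to 3 counts, or 0.115 to 0.143 CPM. These limits cover counting error only.

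No translation gene passed the adjusted threshold of 0.05 in either direction. Of the 48 tested, 0 were called higher in Nipbl+/- cultures, against 1.04% of all genes tested, and 0 were called lower, against 0.916%. An unadjusted p under 0.05 was found for 3 genes, Eif4e3, Eif4ebp2 and Vars2, against 16.9% of all genes, and DESeq2 gave 0 calls as well. The CPM of the 3 WT and 3 Nipbl+/- cultures did not overlap for 8 genes, against 22.8% of all genes. Of these, Eif4e3, Eif4ebp2, Vars2, Iars2, Gspt1 and Eif4h were higher in the mutant cultures, and Cars and Farsb were lower.

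The intervals of the differences show how large a change the data leave room for. The 95% interval of 41 of the 48 genes lay within a 1.2-fold change in either direction, as it did for 33.7% of all genes, and that of 46 genes lay within 1.5-fold. Eif4e3 and Eif2s3x were the exceptions at 1.5-fold. The log2 fold changes ran from -0.16 (Ears2) to 0.44 (Eif4e3), with 23 above 0 and 25 below, and a median of -0.0012 beside -0.0057 over all genes. In size, 39 of 48 were under 0.1 (81.2%, against 46.3% of all genes). These genes also had a smaller spread among cultures of the same genotype, with a median SD of 0.063 log2 CPM against 0.121, and higher levels, so these shares are a description and not a property set against genes of like level.

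**Figure D2:**
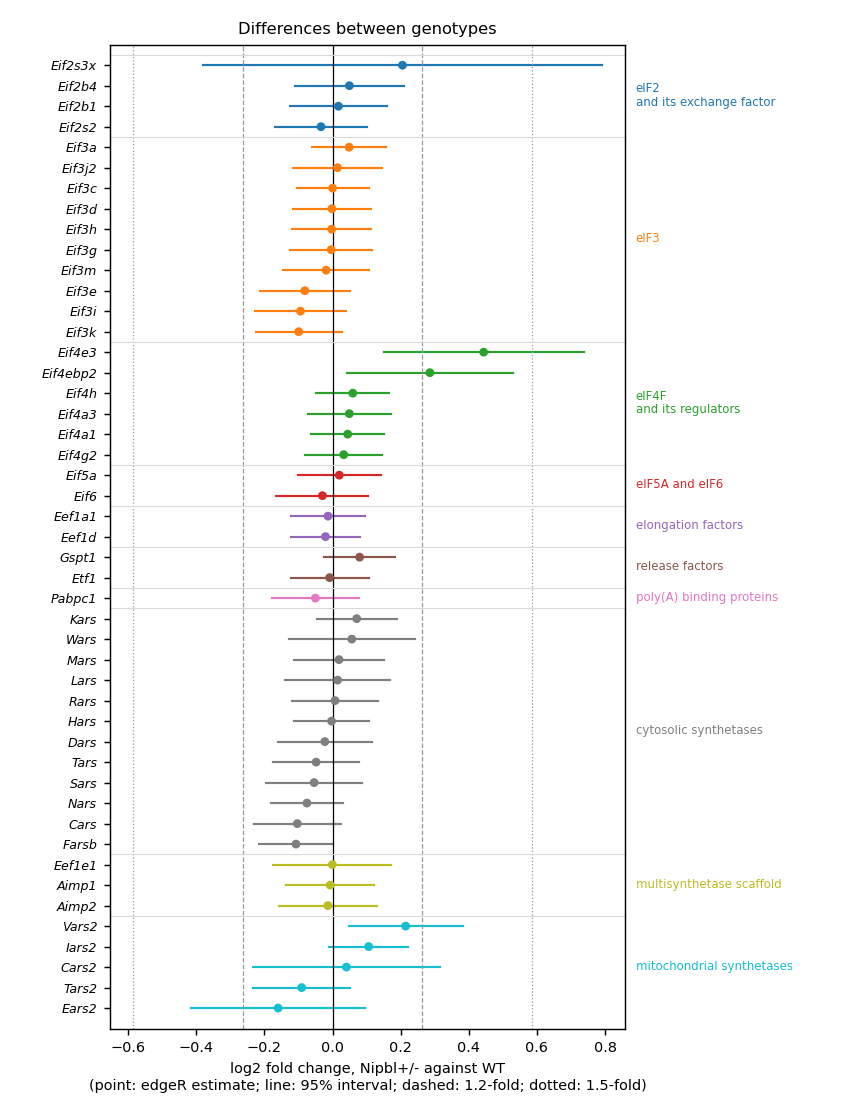
Log2 fold change of Nipbl+/- over WT for 47 of the 48 genes with the 95% interval of each from the edgeR quasi-likelihood fit, grouped by role, with dashed lines at a 1.2-fold change. The points lie between -0.16 and 0.44, and the intervals of Eif2s3x and Eif4e3 are the ones that pass 1.5-fold.

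**Figure D3:**
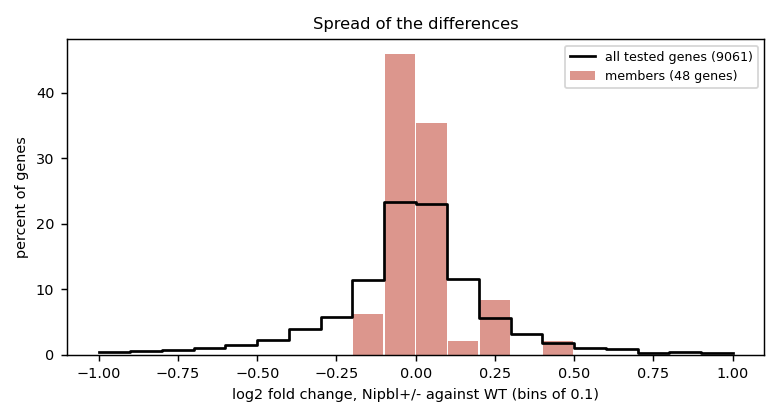
Share of genes by log2 fold change, in bins of 0.1 from -1 to 1, for the 48 translation genes and for all 9061 genes tested. The translation genes gather around 0, with a median absolute difference of 0.046 against 0.110 over all genes, and 160 genes outside the axis belong to the second group.

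Eif4e3 (chr6:99625135-99666771) showed the largest difference. Its level was 11.6, 12.5 and 13.4 CPM in the WT cultures and 19.1, 18.0 and 14.0 CPM in the Nipbl+/- cultures. All mutant cultures lay above all WT cultures, with Nipbl+/- 3 close to WT 3. The log2 fold change was 0.44 (SE 0.13, adjusted p = 0.126 in the edgeR quasi-likelihood test). Among the 3 cultures that expressed Xist (described with Eif2s3x) the level was 13.4 CPM in WT and 19.1 and 18.0 CPM in Nipbl+/-, and among the others 11.6 and 12.5 CPM in WT and 14.0 CPM in Nipbl+/-. With Xist as a covariate the log2 fold change was 0.35 (adjusted p = 0.171 in edgeR's test). The gene lies inside Gm20696 on the same strand, which had 1412 counts over the 6 cultures against 2016 for Eif4e3 and a log2 fold change of 0.00, and how reads in the shared part were counted is not given in the sources used here.

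Eif4ebp2 (chr10), which binds eIF4E and keeps it from eIF4G, stood at 9.61, 11.0 and 9.83 CPM in WT and at 12.9, 11.4 and 12.9 CPM in Nipbl+/- cultures. The groups did not overlap, but WT 2 and Nipbl+/- 2 were close to each other. The log2 fold change was 0.29 (SE 0.11, adjusted p = 0.227 in the same edgeR test).

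Vars2, the mitochondrial valyl-tRNA synthetase, was at 21.77, 20.02 and 21.47 CPM in WT and 23.6, 24.0 and 25.8 CPM in Nipbl+/- cultures. Again the groups did not overlap. The log2 fold change was 0.21 (SE 0.07, adjusted p = 0.183 in the same edgeR test). The summed macrophage markers were also higher in all mutant cultures, and their part in the values of Eif4e3, Eif4ebp2 and Vars2 was not tested.

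**Figure D4:**
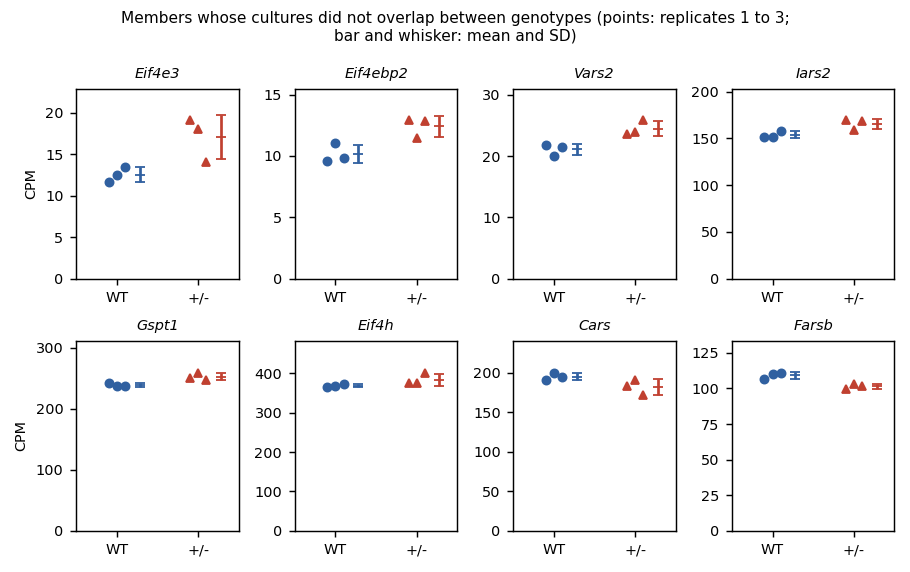
CPM in each of the 3 WT and 3 Nipbl+/- cultures for the 8 translation genes whose genotypes did not overlap, each panel on its own axis. Eif4e3 shows the widest gap between genotype means (12.5 and 17.0 CPM) relative to its level, and none of the 8 passed the adjusted threshold.

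Eif2s3x, the X-linked gene of the gamma subunit of eIF2, varied more between cultures of the same genotype than any other of the 48 genes. It lies at chrX:94188707-94212862 on the minus strand. Its level was 382, 394 and 683 CPM in the WT cultures and 631, 660 and 391 CPM in the Nipbl+/- cultures. Cultures of both genotypes were thus found near 390 and near 660 CPM, and the lowest of the 3 high cultures was 1.60-fold above the highest of the 3 low ones. The within-genotype SD was 0.45 log2 CPM, against 0.18 for the next gene.

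The 3 high cultures, WT 3, Nipbl+/- 1 and Nipbl+/- 2, were those with counts of Xist, the RNA that coats the inactive X chromosome. Xist had 25, 1 and 7770 counts in WT and 7544, 7882 and 6 in Nipbl+/- cultures. The Y-linked helicase gene Ddx3y ran the other way, with 5859, 5471 and 11 counts in WT and 4, 5 and 5240 in Nipbl+/- cultures. The labels do not give the sex of the embryos. Eif2s3x is known to escape X inactivation, and its Y-linked copy Eif2s3y lies on the plus strand and is listed at 0. Each genotype thus held cultures of both kinds, in unequal numbers. The log2 fold change of Eif2s3x by genotype was 0.21 (SE 0.26, 95% interval -0.38 to 0.79, adjusted p = 0.737 in edgeR's test), and with the level of Xist as a covariate it was -0.02 (adjusted p = 0.944). Leaving out 1 culture moved it between 0.055 (without WT 1) and 0.53 (without WT 3).

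**Figure D5:**
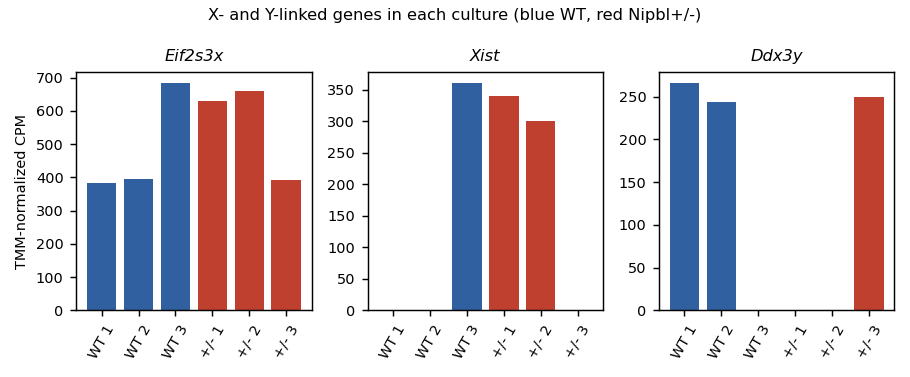
Eif2s3x, Xist and Ddx3y in TMM-scaled CPM for each of the 6 cultures, with a panel for each gene and bars coloured by genotype. The cultures with Xist at 301 to 360 CPM have Eif2s3x between 631 and 683 CPM. The others have Eif2s3x between 382 and 394 CPM, and both genotypes occur in each set.

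The reference promoter of Eif2s3x bears a stretch that matches the C/EBP-ATF response element, the site type through which ATF4 acts on stress genes. The 250 bases before its start (RefSeq, GRCm38.p6, chrX:94212652-94212901, minus strand) are shown with that match in capitals, followed by those of Tars (chr15:11399659-11399908, minus strand), the threonyl synthetase and the member nearest to Nipbl on chromosome 15.
Eif2s3x: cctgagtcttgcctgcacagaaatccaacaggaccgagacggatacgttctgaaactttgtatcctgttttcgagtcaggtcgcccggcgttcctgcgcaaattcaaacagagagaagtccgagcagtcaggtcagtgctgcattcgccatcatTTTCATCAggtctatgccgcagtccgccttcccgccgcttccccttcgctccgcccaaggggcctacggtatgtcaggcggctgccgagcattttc
Tars: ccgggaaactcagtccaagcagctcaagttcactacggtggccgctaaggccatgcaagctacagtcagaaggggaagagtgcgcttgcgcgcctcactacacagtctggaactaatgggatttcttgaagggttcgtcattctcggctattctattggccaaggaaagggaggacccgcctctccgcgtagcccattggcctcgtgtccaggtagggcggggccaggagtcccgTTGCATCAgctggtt
The letters searched were TGATGNAA on both strands, in windows from 250 bases before to 50 bases after each start. They occurred in 2 of the 38 RefSeq promoters matched to 32 of the 50 genes (5.26%) and in 3.97% of all 32851 mouse promoters in the same windows. Tars stood at 321, 333 and 314 CPM in WT and 299, 331 and 307 CPM in Nipbl+/- cultures, with overlapping genotypes (log2 fold change -0.05, adjusted p = 0.708 in edgeR's test).

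Many translation factor mRNAs begin with a C and a run of pyrimidines, the 5′ terminal oligopyrimidine tract through which mTORC1 controls their translation. Start windows of RefSeq are shown for the most abundant of the genes, Eef1a1, for Eif2s3x and for 3 genes described in the results, with 10 bases before the start in lower case and 15 bases from the start in capitals (GRCm38.p6, all on the minus strand).
Eef1a1: ctccgccctcTTCCCGAGGGTGGGG
Eif2s3x: gagcattttcCTTTTCTCTCCGAGC
Eif4a1: gtaacgtcacGTCGAGTTGCAGAGC
Eif4ebp2: cgcagcgggaCGACCGGGCGAGAGC
Vars2: gcacctcgccATGCACCTATCGGCT
A C at the annotated start with 4 further bases that are each C or T was found in 1 of the 38 promoters, that of Eif2s3x, and in 2.51% of all promoters. The window of Eef1a1 holds a pyrimidine stretch across its annotated start, which begins with T. Only the annotated base was searched, and whether the cultures use these starts was not tested. The count therefore does not show which of the mRNAs carry such a tract. The cultures were of CD1 mice, whose sequence at these sites was not read here.

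Of the other eIF2 genes, Eif2s2, which encodes the beta subunit, stood at 476 ± 21.4 CPM in WT and 465 ± 28.5 CPM in mutant cultures (mean ± SD, n = 3). Eif2b1 and Eif2b4, subunits of the factor that reloads eIF2 with GTP, had log2 fold changes of 0.02 and 0.05. None of these 3 genes separated the genotypes.

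No eIF3 subunit passed the threshold. Their sum was 3483 ± 39.0 CPM in WT and 3448 ± 102 CPM in Nipbl+/- cultures, and the interval of each of the 10 lay within 1.2-fold. The highest log2 fold change was that of Eif3a, the scaffold subunit, at 0.05 (SE 0.05), and the lowest that of Eif3k at -0.10 (SE 0.06, adjusted p = 0.408 in edgeR's test). Eif3k ran from 200 to 218 CPM in WT and from 187 to 202 CPM in Nipbl+/- cultures, so that the groups overlapped. Eif3e stood at 518 ± 24.7 CPM in WT and 489 ± 26.5 CPM in mutant cultures.

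In the group of eIF4F and its regulators all 6 log2 fold changes were above 0, with a median of 0.05. Of the 6 genes, 3 separated the genotypes. The group was formed by the Eif4 symbol and so includes Eif4a3 and Eif4g2. Over all genes tested, 4386 of 9061 were above 0 and 22.8% separated the genotypes. Eif4h, which stimulates the eIF4A helicase, was at 366, 367 and 374 CPM in WT and 377, 375 and 402 CPM in Nipbl+/- cultures (log2 fold change 0.06, SE 0.05, adjusted p = 0.576 in edgeR's test). Nipbl+/- 3 was the highest, and the other 2 mutant cultures lay just above the WT cultures. Eif4g2, a relative of eIF4G that does not bind eIF4E, was the most counted of the group at 1204 ± 55.1 and 1231 ± 43.8 CPM. Eif4a1 had 1023 ± 46.0 and 1055 ± 18.9 CPM, and Eif4a3, the helicase of the exon junction complex, 134 ± 6.14 and 139 ± 2.66 CPM.

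Eef1a1 was at 13849, 13039 and 13376 CPM in WT and 12863, 13916 and 13116 CPM in Nipbl+/- cultures, with the highest value in a mutant culture and the lowest in another. Its log2 fold change was -0.01 (SE 0.05). The small RNA gene Gm26377 lies within it on the same strand, with 192938 counts beside 1811319, and Eef1a1, Eif5a, Eif3j2, Eif4a1 and Pabpc1 have close paralogs or pseudogenes that could share reads. Eef1d, a subunit of the exchange factor for eEF1A, stood at 266 ± 6.06 and 262 ± 0.88 CPM. Eif5a and Eif6, which keeps the ribosomal subunits apart, had log2 fold changes of 0.02 and -0.03.

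Termination was represented by Etf1, which reads stop codons, and Gspt1, its GTPase partner. Etf1 was at 445 ± 17.1 CPM in WT and 442 ± 15.4 CPM in mutant cultures. Gspt1 stood at 242, 238 and 237 CPM in WT and at 250, 259 and 248 CPM in Nipbl+/- cultures. These values did not overlap, and the log2 fold change was 0.08 (SE 0.05, adjusted p = 0.423 in edgeR's test). Pabpc1, which binds the poly(A) tail, was at 403 ± 26.2 and 389 ± 5.08 CPM.

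The 12 cytosolic synthetases summed to 3311 ± 37.0 CPM in WT and 3243 ± 150 CPM in Nipbl+/- cultures, with 5 log2 fold changes above 0 and 7 below. All 12 intervals lay within 1.2-fold. Farsb, the beta subunit of the phenylalanyl enzyme, had the lowest log2 fold change, with 107, 110 and 111 CPM in WT and 99.3, 103 and 102 CPM in Nipbl+/- cultures. The genotypes did not overlap (log2 fold change -0.11, SE 0.05, adjusted p = 0.302 in edgeR's test). Cars, the cysteinyl enzyme, was at 191, 200 and 195 CPM in WT and 183, 191 and 172 CPM in Nipbl+/- cultures, where WT 1 and Nipbl+/- 2 differed by under 1 CPM (log2 fold change -0.10, adjusted p = 0.393). The highest log2 fold change was that of Kars, the lysyl enzyme, at 0.07 (SE 0.05), with 189 ± 5.14 and 198 ± 7.08 CPM. Nars stood at 669 ± 10.8 and 635 ± 26.8 CPM.

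The scaffold proteins of the multisynthetase complex were the closest between genotypes. Aimp1 was at 82.0 ± 4.72 CPM in WT and 81.6 ± 2.57 CPM in mutant cultures, Aimp2 at 43.1 ± 1.38 and 42.7 ± 2.59 CPM, and Eef1e1 at 52.0 ± 3.32 and 52.0 ± 4.34 CPM. Their log2 fold changes were -0.01, -0.01 and -0.00.

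Of the mitochondrial synthetases 4 had log2 fold changes above 0 and 2 below, with a median of 0.07. Their summed level was 251, 252 and 261 CPM in WT and 269, 265 and 273 CPM in Nipbl+/- cultures, a difference of 5.70% of the WT mean. The sums of the genotypes did not overlap, whereas those of every other class did, and Iars2 held most of the counts. The mean sum was 255 CPM in WT and 269 CPM in Nipbl+/- cultures, and the mean of Iars2 alone 154 and 166 CPM. Iars2 itself was at 152, 152 and 158 CPM in WT and 169, 159 and 169 CPM in Nipbl+/- cultures (log2 fold change 0.11, SE 0.05, adjusted p = 0.336 in edgeR's test). Ears2, the glutamyl enzyme, had a log2 fold change of -0.16 (SE 0.11, adjusted p = 0.521).

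Genes of pathways tied to these factors, some of them downstream targets such as those of ATF4, were read from 6 lists. In the eIF2 stress response list 9 of 16 names lie on the minus strand, and none passed the threshold in edgeR's quasi-likelihood test. Of the 9, 8 had log2 fold changes below 0, with a median of -0.11. Over all genes tested, 4675 of 9061 were below 0, with a median of -0.0057. An unadjusted p under 0.05 was found for 3 of the 9, Ppp1r15a, Asns and Atf5 (16.9% of all genes). The genotypes did not overlap for 4, all lower in Nipbl+/- cultures, namely Ppp1r15a, Asns, Cebpg and Nck1. Over all genes 22.8% had no overlap in either direction, and 980 of 9061 were lower without overlap. The lowest log2 fold change was that of the stress-induced Nupr1 at -0.26 (SE 0.13, adjusted p = 0.350 in edgeR's test), with overlapping genotypes. Ppp1r15a, which recruits the phosphatase that restores eIF2, was at 72.3, 71.2 and 67.0 CPM in WT and at 58.1, 61.6 and 56.4 CPM in Nipbl+/- cultures. The genotypes did not overlap. Its log2 fold change was -0.26 (SE 0.05, adjusted p = 0.0554), and it passed the threshold in edgeR's exact and likelihood ratio tests and in DESeq2 (adjusted p 0.0313, 0.0306 and 0.0315). It missed the threshold under every other alternative. In edgeR's quasi-likelihood test the adjusted p was 0.0998 with Xist as a covariate and 0.0615 with a replicate block. With 1 culture left out it was 0.0744 to 0.191 in that test.

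Asns, the asparagine synthetase that is a standard ATF4 target, stood at 324, 316 and 332 CPM in WT and 286, 301 and 271 CPM in Nipbl+/- cultures. Again every mutant culture was below every WT culture (log2 fold change -0.18, SE 0.05, adjusted p = 0.131 in edgeR's test). Trib3, an ATF4-induced pseudokinase, had a log2 fold change of -0.17 (SE 0.12, adjusted p = 0.503) with overlapping genotypes. Atf5 was the exception in direction at 0.14 (SE 0.06, adjusted p = 0.283). Atf4 and Ddit3 lie on the plus strand.

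In the other lists no gene passed the threshold or reached an unadjusted p under 0.05. They were mTORC1 and cap signalling (8 of 24 names tested, median log2 fold change -0.03), ribosome recycling and rescue (6 of 15, 0.0022), modification of the factors (6 of 12, -0.04), mitochondrial translation factors (5 of 15, -0.0090) and tRNA charging (7 of 18, 0.02). The kinase Rps6kb2 had the lowest value of the mTORC1 list at -0.16 (SE 0.08, adjusted p = 0.347 in edgeR's test), and Qrsl1, which helps make mitochondrial glutaminyl-tRNA, the highest of the mitochondrial list at 0.20 (SE 0.11, adjusted p = 0.383).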

How the data were processed

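RNA of 3 WT and 3 Nipbl+/- MEF cultures was sequenced after depletion of ribosomal RNA. Per the submitters' notes and the study's methods, the authors aligned reads to mm10 with TopHat2 2.0.10 and Ensembl 72 annotation. The counting tool and its strand setting are not given in the sources used here. The authors deposited raw counts and RPKM per gene for each culture. In each file the counts of every plus-strand gene are 0, so only the 19269 minus-strand genes were used. RPKM served only to compare levels between genes.

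Counts were analysed in R 4.3.3 with edgeR 4.0.16 (filterByExpr with a minimum count of 10, TMM, quasi-likelihood test, Benjamini-Hochberg over 9061 genes, threshold 0.05), with no covariate. Intervals are the log2 fold change ± the t quantile times the SE. CPM are TMM-scaled. The script was tested on simulated data. The 17 alternatives include DESeq2 1.42.0, other scaling factors, filters, a replicate block, an Xist covariate and leaving out each culture. A group mean is given ± SD (n = 3). The 2 most counted genes took 12.5 to 15.4% of each library.

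The genes and lists were chosen with earlier results of these data known. Named were Nipbl, genes with an unadjusted p under 0.05 and no overlap of genotypes, the most abundant gene of each class, the highest and lowest log2 fold change in classes of 4 or more, and set members of the eIF2 stress pathway and synthetases. Genes of the lists that match the rule were counted only as translation genes. Of the genes tested, 1 is not reported here by name. Others were named after their values were seen. Promoters are from RefSeq (GRCm38.p6); coordinates of genes are those of the files. Marker lists for endothelial, muscle and epithelial cells had 2 tested genes each, of 7, 9 and 7 names, and 0 passed the threshold. Of the 6 erythroid markers 0 were tested, so that list gives no result.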

Additional observations from a re-analysis of the deposited data

How the results depend on the processing

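The count of translation genes past the threshold was 0 in either direction under all 17 alternatives, and the lowest adjusted p of any of them was 0.0601 (Eif4e3, DESeq2). The log2 fold changes of Eif4e3, Eif4ebp2 and Vars2 stayed above 0, at 0.35 to 0.56, 0.25 to 0.35 and 0.17 to 0.25, with adjusted p of 0.0601 to 0.343, 0.165 to 0.472 and 0.161 to 0.413. The replicate numbers were not used to pair the cultures in the main fit. Same-numbered cultures correlated at -0.14 to -0.04 and 0 correlated best with their own number. Each same-numbered pair set a culture with high Xist counts beside a culture with few. These correlations therefore cannot show whether the numbers pair the cultures. With a replicate block the lowest adjusted p was 0.204, the median log2 fold change -0.0023 and the number of all genes called 86 against 177. That number was 432 in edgeR's exact test, 442 in its likelihood ratio test, 449 with DESeq2 and 325 without a filter. It was 6, 268 and 65 without WT 1, 2 and 3, and 3, 11 and 67 without Nipbl+/- 1, 2 and 3. Nipbl ranged from -0.47 to -0.39 with 1 culture left out and passed the threshold in 3 of 6 such fits, missing it without WT 1, Nipbl+/- 1 or Nipbl+/- 2.

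With library size alone the median log2 fold change was 0.037, and 0.032 over all genes. Genes of the 6 lists past the threshold were 0, and 1 (Ppp1r15a) in edgeR's exact and likelihood ratio tests and in DESeq2. Of 21 named genes, 7 changed sign, at sizes up to 0.033. With library size alone these were Aimp1 (0.033), Eef1a1 (0.025), Eif2s2 (0.0038) and Etf1 (0.030). Without the 2 most counted genes in the library size they were Aimp1 (0.014), Eef1a1 (0.0068) and Etf1 (0.011). With Xist as a covariate they were Aimp1 (0.024), Etf1 (0.0087) and Eif2s3x (-0.018). With 1 culture left out the values ranged from -0.053 to 0.027 for Aimp1, -0.047 to 0.0075 for Eef1a1, -0.081 to 0.0077 for Eif2s2, -0.022 to 0.061 for Eif5a, -0.031 to 0.023 for Etf1 and -0.084 to 0.0041 for Pabpc1. The cause was not tested.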
